A study of Mus musculus with 12 samples.

Results

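Primary (azurophil) granules are the first granules that a maturing neutrophil makes, and the genes of their contents are read mainly at the progenitor and promyelocyte stage and shut down before the secondary granules form. The 8 genes described here, of 27998 genes in the tables, are a list of names, chosen with earlier results of these data known. They are Mpo (myeloperoxidase, which makes hypochlorous acid), the serine proteases Elane (neutrophil elastase), Prtn3 (proteinase 3), Ctsg (cathepsin G) and Prss57 (neutrophil serine protease 4), and 3 genes that are read in the same progenitors. These are Ms4a3, which encodes a membrane protein of granulocyte and monocyte progenitors, Cst7, which encodes cystatin F, an inhibitor of cysteine proteases, and Nkg7, which encodes a granule membrane protein best known from cytotoxic lymphocytes. The RNA of these genes peaks long before the proteins are used, so a mature neutrophil carries the proteins with little of the RNA.

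The counts came from single-cell RNA sequencing of bone marrow cells enriched for c-Kit on magnetic columns, a fraction that holds stem and progenitor cells of all blood lineages. Mice aged 8 to 12 weeks per the labels (the study's methods give a younger age) received pIpC, an RNA analogue that switches on the interferon-inducible recombinase Mx1-Cre, and gave 1 library per genotype at each of 3 times afterwards, called T1 (2 weeks), T2 (at 2 months) and T3 (at 4 months). WT mice lacked Mx1-Cre, E2-KO mice lost the histone methyltransferase gene Ezh2, G12D mice expressed an activated NRas (G12D) from its own locus, and G12D/E2-KO mice (the double mutant) carried both changes. All 3 mutant genotypes thus differ from WT in the recombinase as well, and Mx1-Cre also acts outside blood cells.

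The 12 libraries held 32701 cells, with 12.6 to 23.6 M UMIs (unique molecular identifiers, each 1 captured RNA molecule) and 3780.5 to 6975.5 UMIs in the median cell of a library. A Kit UMI was found in 20.2 to 30.4% of the cells. Of the 5648 cells in the G12D T1 table, 2896 were also in the G12D/E2-KO T1 table, with the Ezh2 level of the latter, and were counted there only. Ezh2 stood at 113 ± 17.1 CPM (UMIs of a gene per M UMIs; mean ± SD, n = 3) in WT and at 90.3 ± 11.1 CPM in G12D. It was 30.1 ± 3.90 CPM in E2-KO and 22.8 ± 2.31 CPM in the double mutant (edgeR adjusted p 0.000357 and 0.000115 against WT), so its level follows the labels. At T3 the WT, E2-KO and G12D libraries were female (Xist at 1296 to 1357 CPM) and the G12D/E2-KO library was male (Xist at 0.130 CPM), as were all libraries of T1 and T2.

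The genes lie on 6 chromosomes of mm10. Mpo (ENSMUSG00000009350) is at chr11:87793581-87804413 on the plus strand and Ctsg (ENSMUSG00000040314) at chr14:56099881-56102574 on the minus strand. Prtn3 (ENSMUSG00000057729, chr10:79874476-79883174) and Elane (ENSMUSG00000020125, chr10:79886247-79888215) follow each other on the plus strand with 3072 bases between them, and Prss57 (ENSMUSG00000020323, chr10:79781474-79790961, minus strand) ends 83514 bases before Prtn3. Ms4a3 (ENSMUSG00000024681) is at chr19:11629496-11640851 on the minus strand, Cst7 (ENSMUSG00000068129) at chr2:150570415-150578944 on the plus strand and Nkg7 (ENSMUSG00000004612) at chr7:43437073-43438249 on the plus strand.

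Because the genes were read in the same cells, their promoters were searched for a motif of the ETS family, to which the myeloid factor PU.1 (gene Spi1) belongs. RefSeq gave the 250 bases before the start of transcription for 7 of the 8 genes (build GRCm38.p6), without Prss57. The letters AGGAAGT, searched on both strands, occurred in 5 of the 7, against 7.69% of 32851 promoters of that length. The motif was chosen after these sequences had been seen, and a match is a run of letters, not a shown binding site. The 5 stretches are printed because they show the same letters before 5 of the genes, of which Prtn3 and Elane are neighbours and the others lie on other chromosomes; capitals mark the motif, and each reads 5′ to 3′ along its gene.

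Mpo: tggagagagagAGGAAGTtgcctttgtcc
Elane: gtgtcccagggAGGAAGTagggctgtggc
Prtn3: aaactggaaggAGGAAGTgggacccacag
Ctsg: agaggaagaaaAGGAAGTagtcacctgtt
Cst7: aacttctttaaAGGAAGTggttgctcttg

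The Mpo stretch is chr11:87793550-87793578 (plus strand), with the motif 216 bases before the start. That of Elane is chr10:79886217-79886245 (plus strand, 77 bases before) and that of Prtn3 chr10:79879562-79879590 (plus strand, 87 bases before). The Ctsg stretch is chr14:56102763-56102791 (minus strand, 199 bases before) and the Cst7 stretch chr2:150570341-150570369 (plus strand, 56 bases before). Starts are RefSeq's. For Ctsg and Cst7 they match those of the GENCODE intervals above, and for Mpo, Elane and Prtn3 they lie inside these intervals. In all 5 the letters stand on the strand of the gene. No AGGAAGT was found before Ms4a3 or Nkg7 in this window.

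To place the genes among cell types, cells were gated by scores over lists of marker genes that include none of the 8. Each of 9 classes had 20 or more cells in all libraries. They were stem cells and multipotent progenitors (HSC/MPP), progenitors of granulocytes and macrophages together with early granulocytes (GMP/early GN), immature and mature late granulocytes (late GN), promonocytes (ProMo), megakaryocyte-erythroid progenitors (MEP), early erythroid cells (EryP/early Ery), globin-high late erythroid cells, and basophils with mast cells (baso/mast). Between 61.5 and 75.7% of the cells of a library received a class of any kind. The globin-high class served as the background, since late erythroid cells have no known use for granule proteins and 56.6% of their UMIs (median of 12 libraries) came from globin genes.

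Of these 9 classes GMP/early GN-gated cells had the highest level of all 8 genes. Since the list was drawn from genes read in such progenitors, this rank is not an independent finding. There Elane had a median of 12580 CPM over the 12 libraries, Prtn3 6853 CPM, Mpo 3694 CPM and Ctsg 2377 CPM. Ms4a3 followed with 1772 CPM, Nkg7 with 1122 CPM, Cst7 with 429.7 CPM and Prss57 with 323 CPM, and together the genes took 29400 CPM. UMIs of 3′ ends carry no term for transcript length. Whether RNA of the 8 genes was captured and counted equally well was not checked, so their order is one of counted UMIs.

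After the GMP/early GN gate came ProMo-gated cells for 6 genes (Prtn3 at 5122 CPM, Elane at 4486 CPM, Mpo at 1991 CPM) and baso/mast-gated cells for Cst7 (296 CPM) and Nkg7 (558.5 CPM). In 12 of 12 libraries the GMP/early GN level was above that of the class ranked next for every gene but Cst7, for which it was above in 11. For Prss57 ProMo and baso/mast could not be ordered, with 86.0 and 85.2 CPM and ProMo higher in 6 of 12 libraries.

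The levels differed between genes in the other classes. HSC/MPP-gated cells held Prtn3 at 783 CPM, 7.58 times the globin-high level of the same library in the median, and Mpo at 276 CPM, 2.70 times that level. These ratios depend on how the background is read. With globin UMIs left out of the total in both classes they were 3.43 for Prtn3 and 1.25 for Mpo. Prtn3 was then above in 12 and Mpo in 8 of 12 libraries. With cells of 10 or more UMIs of the gene left out of both classes the ratios were 7.065 and 3.078. Leaving such cells out of the globin-high class alone, which takes UMIs from the background only, gave 11.6 and 4.13. Elane of HSC/MPP-gated cells, at 118 CPM, was above globin-high cells in 4 of 12 libraries. That count was 4 again without the cells of either class that held 10 or more Elane UMIs, and 8 when such cells were taken out of the globin-high class alone, and 1 with globin UMIs left out of the total, checks chosen after the data were seen. MEP-gated cells held Nkg7 at 308.5 CPM (above globin-high in 12 of 12) and Cst7 at 84.9 CPM (12 of 12), while their Mpo was above globin-high in 3 of 12 and their Elane in 1 of 12. Without the globin-high cells of 10 or more UMIs of the gene these were 5 and 1 of 12, without such cells in both classes 3 and 0, and without globin UMIs 0 and 0, while Nkg7 and Cst7 were above in 12 of 12 each time.

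Immature late GN-gated cells held Ms4a3 at 211 CPM and Prss57 at 43.1 CPM, above globin-high in 12 of 12 libraries for both, with Nkg7 at 49.0 CPM also above in 12 of 12. In the same cells Mpo (71.3 CPM) was above globin-high in 4 of 12, Ctsg (33.2 CPM) in 2 of 12 and Elane (134.5 CPM) in 5 of 12. Without cells of 10 or more UMIs of the gene in both classes, Elane was above in 11 of 12, Mpo in 4 and Ctsg in 3, so that the count for Elane rested on a few globin-high cells. Without globin UMIs in the total the counts were 12 for Ms4a3 and Prss57, 8 for Nkg7, 1 for Elane and 0 for Mpo and Ctsg. EryP/early Ery-gated cells were lowest of the 9 classes for all 8 genes, with 52.1 CPM of Mpo and 67.3 CPM of Elane, under the globin-high level in 10 to 12 of 12 libraries according to the gene. In UMIs per cell they were above the globin-high cells in 9 to 12 of 12, at median depths of 13021 and 3652 UMIs.

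**Figure D1:**
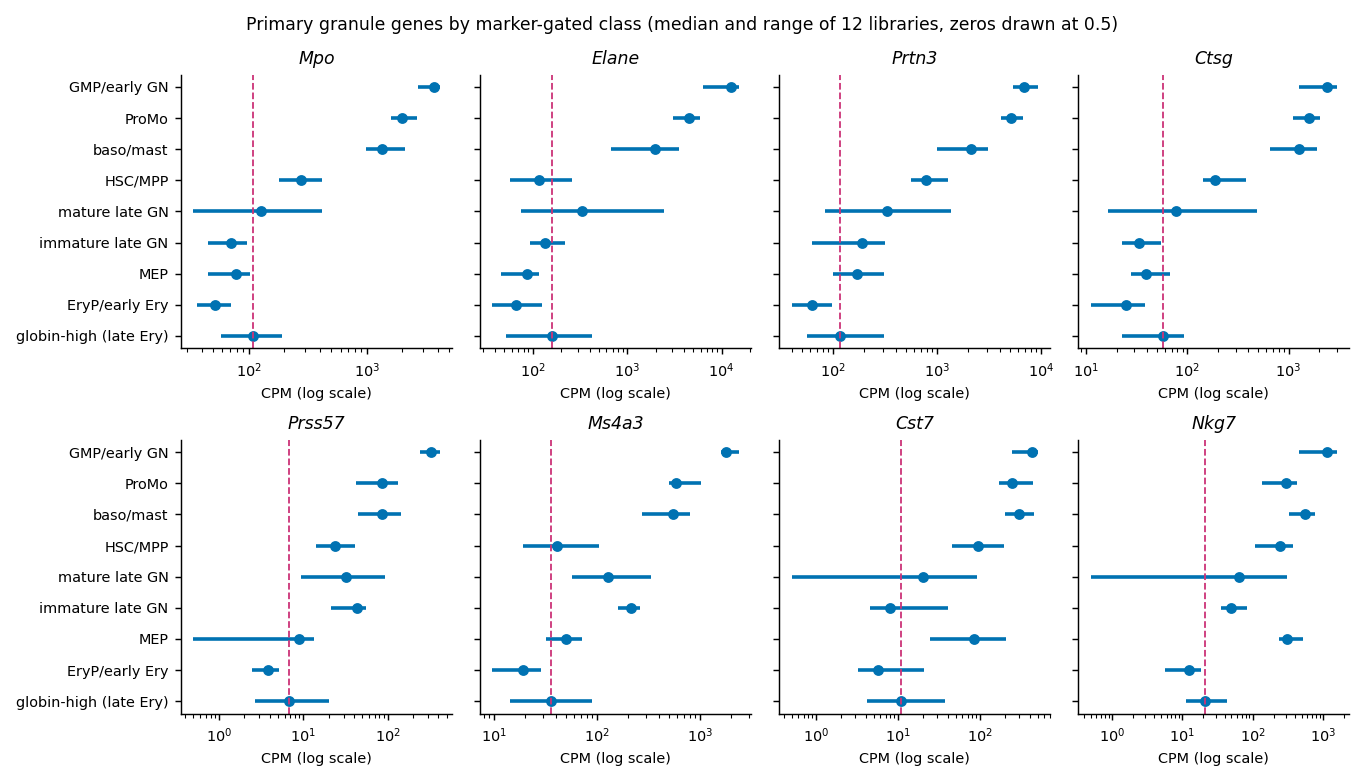
Levels of the 8 genes (panels) in CPM on a log axis for 9 marker-gated classes; points are medians and lines the range of 12 libraries, the dashed line marks the median of globin-high cells, and libraries at 0 are drawn at 0.5. All genes are highest in GMP/early GN-gated cells among the 9 classes. Nkg7 and Cst7 stand above the dashed line in MEP-gated cells, where the medians of Mpo and Elane do not. Without the few globin-high cells rich in Mpo UMIs the line for Mpo would be at 72.3 CPM, under its MEP median of 77.9 CPM. Within libraries, however, the MEP level of Mpo was then a median of 0.936 times the globin-high level, so still below it. With cells rich in Mpo UMIs left out of both classes that ratio was 0.894.

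The background was measured in the 2317 globin-high cells. Summed over the 8 genes it was 568 CPM in the median library and ran from 253 CPM in E2-KO T3 to 1111 CPM in G12D/E2-KO T3. That is 1.85% (0.946 to 5.69%) of the level in the GMP/early GN cells of the same library and 7.67% (3.54 to 13.8%) of the level over all its cells. Counted per cell it was 2.71 UMIs (0.866 to 3.87) in globin-high cells, 3.09 in EryP/early Ery-gated cells and 253 in GMP/early GN-gated cells. Part of it lay in few cells. The 11 globin-high cells with 10 or more UMIs of any 1 of the genes, at most 2 in a library, held up to 66.0% of the class's UMIs of the 8 genes (E2-KO T2). Without them the summed level was 342 CPM in the median library (253 to 597.5 CPM), 1.21% of the GMP/early GN level and 5.26% of the level over all cells, and 1.58 UMIs per cell. Leaving globin UMIs out of the total raised the globin-high level to 1092 CPM in the median library.

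Elane, Prtn3, Mpo and Ctsg came in this order of share in globin-high cells and in whole libraries. Globin-high cells had less Elane and more Mpo. Elane gave 29.8% of the UMIs of the 8 genes in globin-high cells and 34.2% over all cells, Prtn3 24.6 and 29.8%, Mpo 18.7 and 13.4% and Ctsg 9.80 and 9.66% (medians of 12 libraries). Without the 11 cells the shares in globin-high cells were 27.2% for Elane, 23.9% for Prtn3, 21.3% for Mpo and 10.8% for Ctsg. Elane and Prtn3 were also the highest in GMP/early GN- and ProMo-gated cells. Other mixtures were seen elsewhere. Prtn3 gave 44.3% in HSC/MPP-gated cells with 6.68% of Elane, Nkg7 gave 38.3% in MEP-gated cells, and Ms4a3 gave 27.75% in immature late GN-gated cells, where Prss57 gave 5.47% against 1.12% in GMP/early GN-gated cells.

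**Figure D2:**
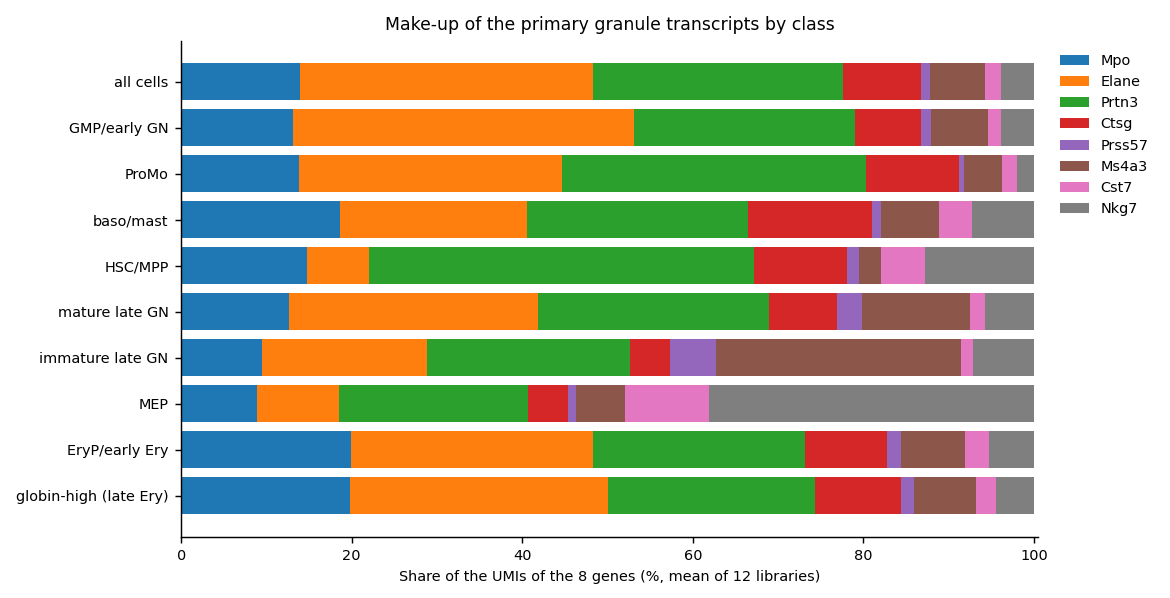
Share of each gene (colours) in the UMIs of the 8 genes, in percent, mean of 12 libraries, for all cells and 9 marker-gated classes. Globin-high and EryP/early Ery cells have less Elane and more Mpo than whole libraries. HSC/MPP is led by Prtn3, MEP by Nkg7 and immature late GN by Ms4a3 in this mean over all genotypes. In immature late GN the mean of Prtn3 was above that of Ms4a3 in E2-KO (267.1 against 233.2 CPM) and G12D/E2-KO (291.5 against 244.5 CPM). It was below in WT (90.33 against 189.0 CPM) and G12D (123.4 against 196.4 CPM).

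Most of the transcripts sat in few classes. GMP/early GN-gated cells, 9.52% of all cells, held a median of 46.1% of the Elane UMIs of a library, 34.75% of Mpo and 32.7% of Prtn3, and ProMo-gated cells 19.4, 21.8 and 27.45%. Cells without a class held 28.85% of the Mpo UMIs. Within the GMP/early GN gate the genes varied together from cell to cell, most closely Mpo with Ctsg (median r over 12 libraries 0.75 on log-scaled counts), Elane with Prtn3 (0.74) and Mpo with Prtn3 (0.72), and least Prss57 with Cst7 (0.22). These are correlations across cells of 1 library, which share the library's depth, and they describe the cells without a test.

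Among genes outside the list, 5 had the pattern over 141 sums (1 per library and class) most like that of the 8 genes added together. They were Gstm1 (Pearson r 0.947), Hsd17b1 (0.891), Atp8b4 (0.883), Tfec (0.865) and Dmkn (0.856), on log2(CPM + 10). Gstm1, Atp8b4 and Dmkn are among the gate's own markers of GMP/early GN, so their likeness follows in part from the gate. The 8 genes themselves, each a part of that total, ran from 0.984 (Prtn3) to 0.817 (Nkg7). Gstm1, which encodes a glutathione transferase, had 587 CPM in GMP/early GN-gated cells and 9.91 CPM in globin-high cells, and Hsd17b1, which encodes a steroid dehydrogenase, 48.3 and 0.267 CPM.

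The first comparison between genotypes took all cells of each library, where a change in the number of GMP and a change in the RNA per cell cannot be told apart. Mpo stood at 566, 1053 and 681 CPM in WT (T1, T2 and T3) and at 1351, 1136 and 778 CPM in E2-KO. It stood at 1194, 1021 and 1160 CPM in G12D and at 1089, 1310 and 1146 CPM in G12D/E2-KO. WT T1 and T3 were the lowest 2 libraries and E2-KO T3 the next, while WT T2 lay among the mutants, so that WT overlapped E2-KO and G12D but not G12D/E2-KO.

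Elane stood at 1550, 2753 and 1944 CPM in WT, at 3383, 3301 and 1056 CPM in E2-KO, at 3728, 3462 and 2877 CPM in G12D and at 2533, 2535 and 2367 CPM in G12D/E2-KO. E2-KO T3 was the lowest library of all, and the 3 G12D libraries all lay above WT. Prtn3 stood at 1042, 2168 and 1295 CPM in WT and at 2963, 2742 and 2530 CPM in G12D/E2-KO, while E2-KO had 2996, 2684 and 1396 CPM and G12D 2331, 1922 and 2797 CPM. Here all 3 G12D/E2-KO libraries were above all WT libraries, while E2-KO T3 and G12D T2 lay inside the WT range.

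Ctsg stood at 393, 813 and 507 CPM in WT, and E2-KO had 979, 896 and 310 CPM. In G12D it stood at 853, 862 and 852 CPM, and the double mutant had 607, 606 and 667 CPM. The G12D libraries lay above all WT libraries and the double mutant inside the WT range. Prss57, the lowest of the 8, stood at 45.2, 102.6 and 53.5 CPM in WT and at 97.8, 90.8 and 40.3 CPM in E2-KO. G12D had 92.4, 92.3 and 84.2 CPM of it and the double mutant 83.0, 90.5 and 96.7 CPM, all below WT T2 and above the other WT libraries.

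Ms4a3 stood at 256, 573.5 and 288 CPM in WT and at 609, 537 and 266 CPM in E2-KO. G12D had 510.1, 541 and 512 CPM of it and the double mutant 501, 560.0 and 710.2 CPM, with only G12D/E2-KO T3 of these above WT T2. Cst7 stood at 80.0, 139 and 78.6 CPM in WT and at 149.5, 142.5 and 61.6 CPM in E2-KO, while G12D had 158, 135 and 164 CPM and the double mutant 139, 161 and 303.5 CPM. G12D/E2-KO T3 stood apart, and the other 2 double mutant libraries lay at the level of G12D.

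Nkg7 stood at 178, 388 and 211 CPM in WT and at 385, 341 and 124 CPM in E2-KO. G12D had 399, 389 and 299.5 CPM of it and the double mutant 263, 331 and 221 CPM, inside the WT range in all 3. For all 8 genes T2 was the highest of the WT libraries and T3 the lowest of the E2-KO libraries.

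In edgeR 0 of the 8 genes passed the threshold (adjusted p of 0.05 over all genes tested) in any mutant against WT, while 1.59% of 12848 genes were called in E2-KO, 0.109% in G12D and 5.69% in the double mutant. An unadjusted p under 0.05 was reached by 0, 3 and 3 of the 8, and DESeq2 called 0, 0 and 2, the last being Cst7 and Prtn3. All 8 log2 changes were above 0 in each of the 3 comparisons, which share the same WT libraries, with medians of 0.245, 0.63 and 0.49 against medians near 0 (0.004, -0.009 and 0.012) over all genes. Without WT T1 the changes of Elane, Ctsg, Prss57 and Nkg7 in E2-KO and of Elane, Ctsg and Nkg7 in G12D/E2-KO turned below 0. In G12D/E2-KO the change of Mpo was 0.57 (SE 0.22, adjusted p 0.136), that of Prtn3 0.83 (SE 0.32, adjusted p 0.137) and that of Cst7 0.96 (SE 0.37, adjusted p 0.142). For Elane, Ctsg and Nkg7 the values were 0.19, 0.10 and 0.02 (adjusted p 0.728, 0.877 and 0.978). With 1 library left out the change ran from 0.31 to 0.85 for Mpo, from 0.5 to 1.18 for Prtn3 and from 0.5 to 1.28 for Cst7. The lowest values came without WT T1 (Mpo, Prtn3) and without G12D/E2-KO T3 (Cst7).

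Between G12D/E2-KO and G12D 0 of 8 passed (1.36% of all genes did, with 0 of 8 at an unadjusted p under 0.05 and 0 in DESeq2), with log2 changes from -0.55 to 0.27. The interaction (the double mutant's change less those of both single mutants added) was not called for any of the 8 in edgeR (0.0934% of all genes were, unadjusted 0, DESeq2 0). It was below 0 for 7 of 8 genes and ran from -0.81 to 0.05, each with an adjusted p of 1. Of the time points, neither T2 nor T3 against T1 gave a call among the 8 in edgeR (0% of all genes passed in either, 0 of 8 had an unadjusted p under 0.05, and DESeq2 was not run).

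**Figure D3:**
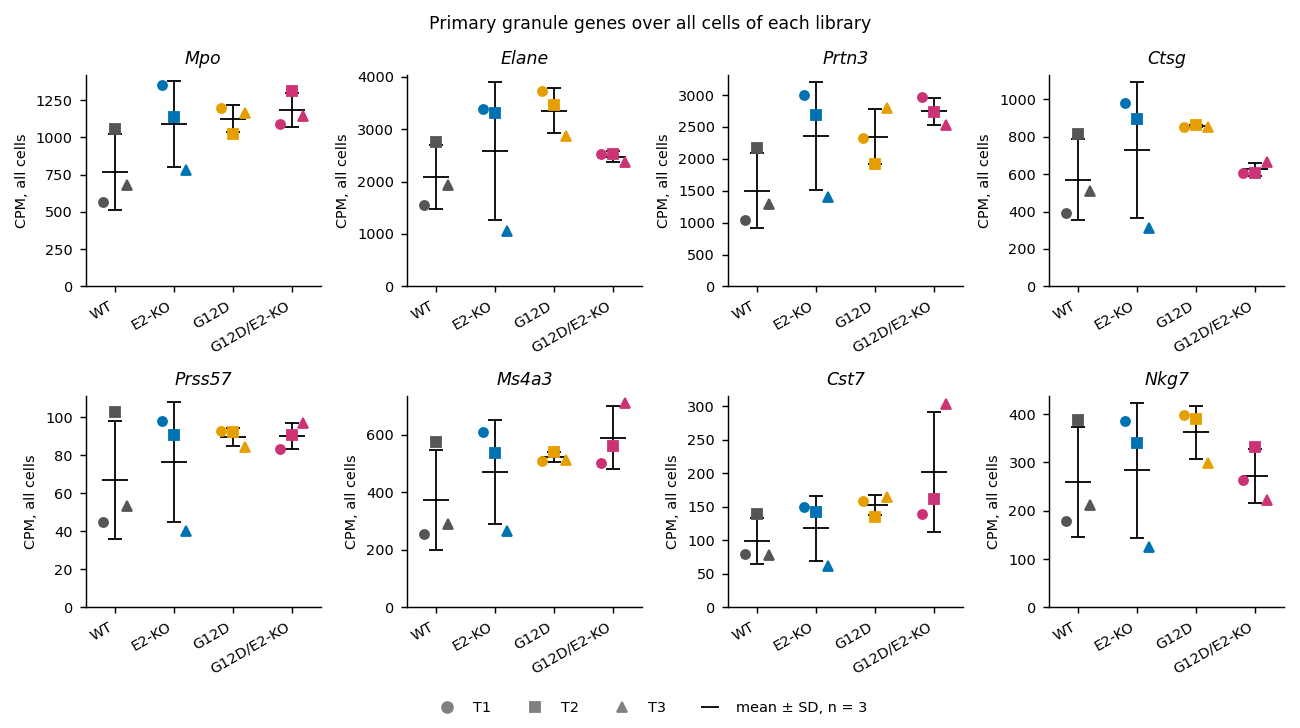
CPM over all cells of each library for the 8 genes (panels), by genotype, with T1, T2 and T3 as circles, squares and triangles and the mean ± SD of 3 libraries as black bars; axes start at 0. WT T1 and T3 and E2-KO T3 are low for most genes, and Cst7 reaches 303.5 CPM in G12D/E2-KO T3.

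The share of GMP/early GN-gated cells moved with these levels. It was 5.92% of the cells in WT T1, 5.48% in WT T3 and 5.30% in E2-KO T3, the 3 libraries with the lowest sums of the 8 genes, and 8.585 to 13.1% in the other 9, WT T2 with 9.67% among them. What the share adds to each level was not tested. The next comparison looks within the gate, whose mix of GMP and early granulocytes was not measured and may differ between libraries.

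Within GMP/early GN-gated cells the order of the genotypes was another one. Elane stood there at 12450, 12710 and 13970 CPM in WT and at 10310, 8817 and 7165 CPM in G12D/E2-KO, so that the double mutant lay below WT without overlap. It stood at 14790, 15300 and 10670 CPM in G12D, around the WT values, and at 12740, 13390 and 6314 CPM in E2-KO, where T3 stood apart. Ctsg stood at 2088, 3017 and 2514 CPM in WT and at 1835, 1424 and 1353 CPM in G12D/E2-KO, again without overlap. G12D had 2482, 2926 and 2272 CPM of it. E2-KO had 3018, 2966 and 1266 CPM, so that E2-KO T3 was below every double mutant library. The median cell of this gate had 4266 UMIs in E2-KO T3, 5206.5 in G12D/E2-KO T2 and 5760 in G12D/E2-KO T3, against 6422 to 9903 in the other libraries. The same shallow libraries had the lowest Elane and Ctsg in this gate, and the lowest Nkg7. G12D/E2-KO T1, with 9110 UMIs, was also below WT for these genes. The part of depth in these levels was not tested. How many of all genes separate genotypes without overlap was not counted, here or in the other comparisons.

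Nkg7 had 1095, 1549 and 1148 CPM in WT and 998, 983 and 451 CPM in G12D/E2-KO, also without overlap. It had 1336, 1274 and 696 CPM in E2-KO, whose T3 library lay among those of the double mutant, and 1454, 1580 and 1078 CPM in G12D. Mpo, in contrast, overlapped, with 3297, 4135 and 3852 CPM in WT and 3688, 3603 and 2715 CPM in G12D/E2-KO. Prtn3 overlapped as well, with 5888 to 8096 CPM in WT and 5352 to 8867 CPM in G12D/E2-KO.

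In edgeR the log2 changes in the GMP/early GN-gated cells of G12D/E2-KO were -0.76 for Ctsg (SE 0.215, adjusted p 0.0985), -0.64 for Elane (SE 0.18, adjusted p 0.0896) and -0.72 for Nkg7 (SE 0.19, adjusted p 0.0646). For Mpo it was -0.19 (adjusted p 0.564), for Prtn3 0.03 (adjusted p 0.955) and for the other 3 genes from -0.39 to -0.09. Thus 0 of 8 passed (1.85% of 9029 genes did), with 4 of 8 at an unadjusted p under 0.05, and DESeq2 called Ctsg and Nkg7. Without a filter on low counts edgeR called Elane, Ctsg and Nkg7. It called Ctsg and Nkg7 without WT T1 (-0.99 and -0.95), Elane and Ctsg without E2-KO T3 and Nkg7 without G12D/E2-KO T1. Without WT T3 the changes shrank to -0.28 (Elane), -0.5 (Ctsg) and -0.45 (Nkg7), none of them called. In E2-KO and in G12D 0 of 8 passed (0.687 and 0.222% of all genes, unadjusted 0 and 0, DESeq2 0 and 0), with medians over the 8 of -0.17 and 0.04.

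Pairs of genes in the same cells gave ratios that do not depend on the total. Prtn3 over Elane in the GMP/early GN gate was 0.530 ± 0.0931 (SD, n = 3) in WT, 0.508 ± 0.117 in G12D, 0.836 ± 0.217 in E2-KO and 0.809 ± 0.0573 in the double mutant. The 6 libraries with Ezh2 deleted ran from 0.688 to 1.085 and the 6 with Ezh2 intact from 0.434 to 0.642, with no overlap. In ProMo-gated cells the same ratio ran from 1.06 to 1.65 with Ezh2 deleted and from 0.829 to 1.28 with Ezh2 intact, with overlap. It also overlapped over all cells (0.813 to 1.32 and 0.555 to 0.972) and in HSC/MPP-gated cells (3.75 to 9.57 and 2.94 to 11.7). These ratios were looked at after the levels were known and are given without a test.

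In ProMo-gated cells Ctsg stood at 1670, 1816 and 2039 CPM in WT and at 1260, 1106 and 1168 CPM in the double mutant. The single mutants had 1997, 1956 and 1259 CPM (E2-KO) and 1528, 1974 and 1491 CPM (G12D). The double mutant lay below WT and below G12D in every library, far above the globin-high level of 22.7 to 92.1 CPM. Ctsg fell there by 0.73 on the log2 scale (SE 0.17, edgeR adjusted p 0.0178), the only 1 of the 8 that passed in ProMo (2.92% of 9169 genes did). The call was lost without WT T3 (-0.49, adjusted p 0.285) and without G12D/E2-KO T2 (-0.66, adjusted p 0.107). DESeq2 called 2 of 8 there, and the changes of Elane and Nkg7 were -0.55 and -0.87 (adjusted p 0.118 and 0.184). In E2-KO and G12D 0 of 8 passed in ProMo (1.09 and 0.153% of all genes, unadjusted 0 and 0, DESeq2 0 and 0).

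**Figure D4:**
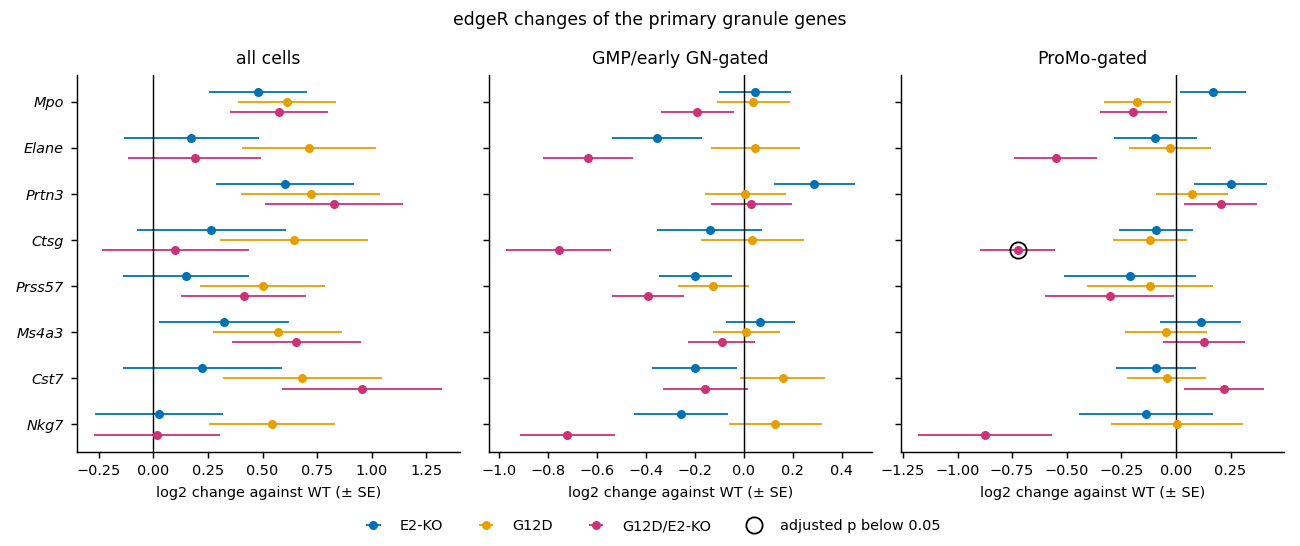
edgeR log2 changes against WT with their SE for the 8 genes over all cells, in GMP/early GN-gated and in ProMo-gated cells, by mutant genotype (colours); a circle marks an adjusted p below 0.05. Over all cells the points lie to the right of 0, while within both gates Elane, Ctsg and Nkg7 of G12D/E2-KO lie to its left and Ctsg in ProMo is circled.

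Late granulocytes gave the largest change among those that passed. In immature late GN-gated cells Prtn3 stood at 62.4, 130.3 and 78.4 CPM in WT and at 123.4, 85.2 and 162 CPM in G12D. It stood at 218, 309 and 275 CPM in E2-KO and at 268, 287 and 319 CPM in G12D/E2-KO. The lowest library with Ezh2 deleted (218 CPM) was above the highest with Ezh2 intact (162 CPM).

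On the log2 scale Prtn3 rose by 1.43 in E2-KO (SE 0.24, edgeR adjusted p 0.00439) and by 1.498 in G12D/E2-KO (SE 0.23, adjusted p 0.00175), and in G12D its change was 0.37 (adjusted p 0.9999). It was the only 1 of the 8 called in either comparison, where 2.06 and 4.34% of 6892 genes were called, and 0 of 8 were called in G12D (0.189% of all genes, unadjusted 2, DESeq2 0). The call in G12D/E2-KO passed with each of the 12 libraries left out, and that in E2-KO in 11 of 12, with an adjusted p of 0.164 without E2-KO T3. When every deposited cell was counted, neither call passed, with changes of 1.42 and 1.47 and adjusted p of 0.103 and 0.0700.

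Elane, the next gene on the chromosome, was not called in either. It stood at 114, 135 and 94.7 CPM in WT and at 218, 103 and 153 CPM in G12D. It stood at 134, 204 and 103 CPM in E2-KO and at 131, 178 and 213 CPM in the double mutant. The 4 genotypes overlapped, with changes of 0.22 and 0.36 in the 2 genotypes without Ezh2 (adjusted p 0.755 and 0.522). Prtn3 over Elane was 1.5 to 2.67 in the 6 libraries with Ezh2 deleted and 0.549 to 1.06 in the 6 with Ezh2 intact. Mpo over Elane overlapped, with 0.268 to 0.778 and 0.412 to 0.5885, in the same order. Prtn3 over Mpo overlapped at the edge, with 2.234 to 5.636 and 0.975 to 2.269.

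These levels are low, and the background bears on them. Prtn3 in the immature late GN gate was above the globin-high level of its own library in 6 of 6 libraries with Ezh2 deleted, by as little as 309 against 262 CPM in E2-KO T2, and in 2 of 6 with Ezh2 intact. Globin-high cells held 63.1 to 262 CPM of Prtn3 in E2-KO and 72.6 to 250.4 CPM in the double mutant, against 60.4 to 171 CPM in WT and 56.5 to 307.5 CPM in G12D. Without cells of 10 or more Prtn3 UMIs in both classes, the gate was above in 6 of 6 libraries with Ezh2 deleted (282 against 75.6 CPM in E2-KO T2) and in 4 of 6 with Ezh2 intact, the exceptions being G12D T1 and T3. With globin UMIs left out of the total instead, it was above in 2 of 6 with Ezh2 deleted and in 0 of 6 with Ezh2 intact. In E2-KO T2 such cells were 0.909% of the globin-high cells and held 71.9% of their Prtn3 UMIs. The part of the background in the result was not tested. The size of the gate varied as well. It took 10.98 to 17.4% of a WT library and 11.4 to 17.4% of a G12D library, against 4.86 to 6.81% with E2-KO and 5.35 to 11.1% with the double mutant, whose highest library overlapped with WT. The part of these shares in the Prtn3 levels was not tested. In globin-high cells themselves 0 of 7 genes tested were called in each mutant (1.31, 0.0496 and 0.843% of 4034 genes in E2-KO, G12D and G12D/E2-KO, unadjusted 0 in each, DESeq2 0 in each).

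The UMIs were spread over many cells. With each cell thinned to 1400 UMIs, a Prtn3 UMI would be found in 10.7 ± 3.73% of the immature late GN-gated cells of WT, 15.0 ± 4.79% of those of G12D, 25.2 ± 6.13% of those of E2-KO and 28.5 ± 1.76% of those of the double mutant (SD, n = 3). For globin-high cells the shares were 9.59 ± 1.30, 14.7 ± 8.13, 10.97 ± 2.165 and 16.05 ± 5.36%, in the same order. Unthinned, the median library had a Prtn3 UMI in 45.2% of these cells and in 27.8% of globin-high cells, at median depths of 3025.5 to 5780 and 2930 to 4342 UMIs. Cells with 10 or more Prtn3 UMIs were at most 1.39% of the gate in any library, and without them the means were 88.6 ± 32.5 CPM in WT, 123.4 ± 38.2 CPM in G12D, 246 ± 56.9 CPM in E2-KO and 272 ± 16.4 CPM in the double mutant.

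In mature late GN-gated cells, from as few as 23 cells in a library, the genes varied most. E2-KO T2 had 5562 CPM for the 8 genes and the other libraries 457 to 2815 CPM, and 0 of the 7 genes that passed the filter on low counts were called (0.24% of 2497 genes in E2-KO, 0.24% in G12D and 0.521% in the double mutant, unadjusted 0 in each, DESeq2 0 in each). Without E2-KO T2 edgeR called 2 of them in E2-KO. Cst7 did not pass the filter.

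**Figure D5:**
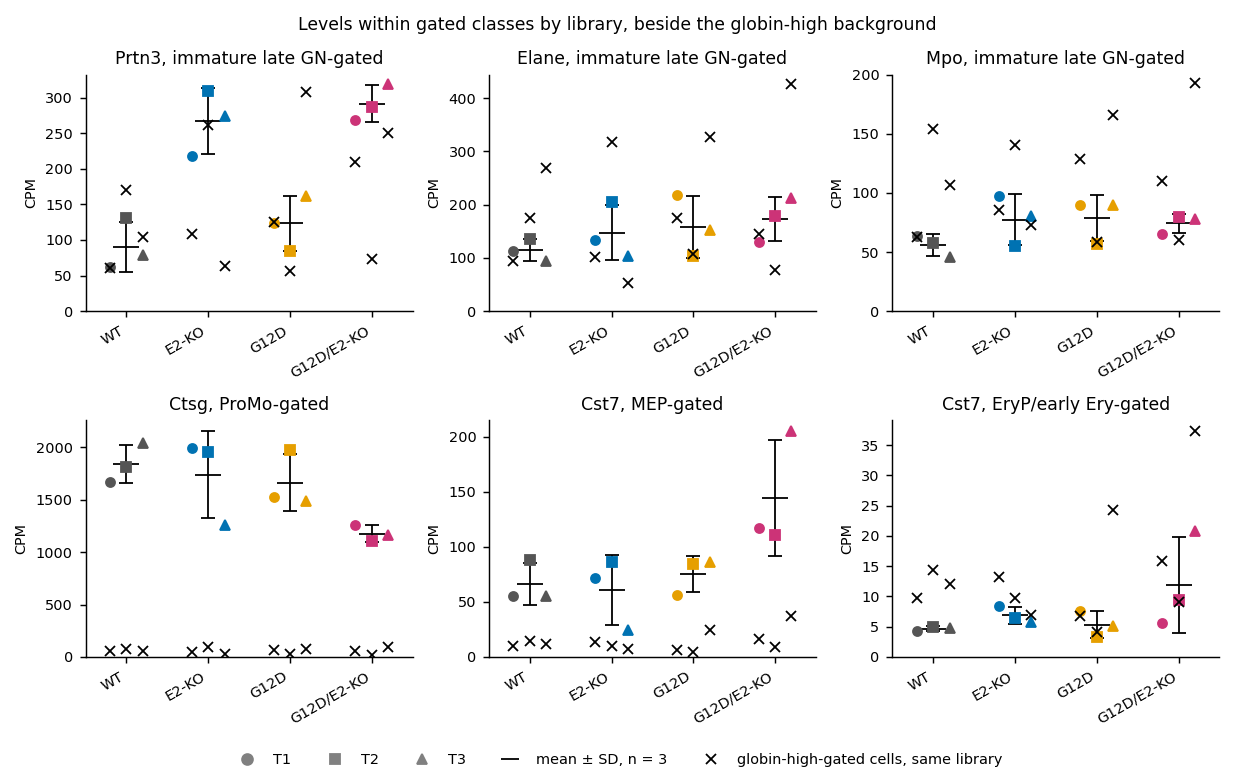
CPM by library within gated classes for Prtn3, Elane and Mpo in immature late GN, Ctsg in ProMo and Cst7 in MEP and EryP/early Ery, by genotype (symbols for T1 to T3, black bars for mean ± SD, n = 3), with crosses for the globin-high cells of the same library. Prtn3 of E2-KO and G12D/E2-KO stands above WT and G12D, Elane and Mpo do not, and Cst7 in EryP/early Ery lies mostly at or below its crosses.

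In the MEP and EryP/early Ery gates the gene that passed was Cst7. In MEP-gated cells it stood at 55.2, 88.3 and 55.5 CPM in WT and at 117, 111 and 205 CPM in the double mutant. E2-KO had 72.1, 85.8 and 24.7 CPM and G12D 56.6, 84.0 and 85.8 CPM. All double mutant libraries were above all others and all 12 libraries above their globin-high level of 4.185 to 37.4 CPM. Cst7 rose in G12D/E2-KO by 1.22 (SE 0.27, edgeR adjusted p 0.0252), 1 of 7 genes tested (0.699% of 5152 genes), while DESeq2 called 0. The call was lost with DESeq2 (adjusted p 0.150), the stricter gate (1.04, adjusted p 0.133), and without WT T1, WT T3, G12D/E2-KO T1 or G12D/E2-KO T3 (1.16, 1.05, 1.24 and 0.85). G12D/E2-KO T3, the highest library, is also the male library at T3. The male libraries of the other genotypes, at T1 and T2, held 55.2 to 88.3 CPM and the female libraries at T3 24.7 to 85.8 CPM. At T3 sex and the double mutant genotype cannot be told apart, and the part of sex in the Cst7 level was not tested. In E2-KO and G12D 0 of 7 passed in MEP (0.33 and 0.0776% of all genes, unadjusted 0 and 0, DESeq2 0 and 0), and Prss57 was too low to be tested.

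In EryP/early Ery-gated cells Cst7 also passed in G12D/E2-KO (1 of 8, against 3.15% of 9546 genes), at 1.40 on the log2 scale (SE 0.37, edgeR adjusted p 0.0460). Its levels there were 4.27, 4.93 and 4.84 CPM in WT and 5.55, 9.40 and 20.8 CPM in G12D/E2-KO, at or below the globin-high level in 10 of 12 libraries. Without G12D/E2-KO T3 the change was 0.76 (adjusted p 0.294), and the call passed in 3 of 12 with a library left out. It was also lost with DESeq2, with the strict gate, with the loose gate and without the time point as a replicate block. In E2-KO and G12D 0 of 8 passed (2.71 and 0.147% of all genes, unadjusted 1 and 2, DESeq2 0 and 0).

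HSC/MPP-gated cells showed Cst7 at 83.6, 104 and 48.2 CPM in WT and at 112.5, 149 and 195 CPM in G12D/E2-KO, with a change of 1.03 (SE 0.27, adjusted p 0.126) that did not pass in edgeR. In edgeR 0 of 8 were called in that gate in any mutant (0.281, 0.141 and 0.689% of 7108 genes in E2-KO, G12D and the double mutant), with 1, 2 and 3 at an unadjusted p under 0.05 and 0 in DESeq2 each time. Without G12D/E2-KO T1 edgeR called 1 gene in G12D and 1 in the double mutant. The other 7 genes had changes below 0 in G12D/E2-KO, down to -0.49 for Ctsg. In baso/mast-gated cells 0 of 8 were called as well (0.249, 0.0383 and 0.402% of 5225 genes, unadjusted 1, 5 and 0), and DESeq2 called 0, 1 and 0. Without G12D/E2-KO T2 edgeR called 1 in G12D.

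Whether early progenitors differ in how many of them hold an Mpo transcript was read from HSC/MPP-gated cells thinned to 1400 UMIs. The shares with a Mpo UMI were 23.2, 26.6 and 22.3% in WT and 33.3, 23.3 and 23.4% in E2-KO. They were 23.5, 17.5 and 18.5% in G12D and 26.1, 26.9 and 17.3% in the double mutant. All genotypes overlapped, and globin-high cells gave 8.07 to 17.6%, with 8.80 to 12.0% in WT. Unthinned shares were 36.7 to 64.2% in HSC/MPP at median depths of 3311.5 to 5968 UMIs and 19.8 to 46.2% in globin-high cells at 2930 to 4342 UMIs.

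With Ezh2 deleted the share differed by 3.12 points on average over 6 pairs of libraries (SD 5.52, higher in 4 of 6, exact two-sided sign-flip p 0.3125), and with G12D by -3.71 points (SD 4.84, higher in 2 of 6, exact p 0.1562), so that neither passed. The difference with Ezh2 deleted was 1.51 points without the T1 libraries, 4.76 points with the strict gate (higher in 5 of 6, exact p 0.0625), 0.809 points unthinned (exact p 0.7812) and 0.959 points when 2 or more UMIs were asked for. The smallest p that 6 pairs allow is 0.03125, and both effects use the same 12 libraries. Counting cells with at least 2 Mpo UMIs, the G12D effect was -2.63 points, lower in 6 of 6 pairs, with that smallest exact p.

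Partner genes of the granule program were read over all cells from a list of 21. In edgeR 1 passed in the double mutant and 0 in either single mutant, with 8 (double mutant), 6 (E2-KO) and 4 (G12D) at an unadjusted p under 0.05, and DESeq2 called 4, 2 and 1. Over all 12848 genes edgeR called 5.69% in the double mutant, 1.59% in E2-KO and 0.109% in G12D, so that 1 of 21 is near the background. In G12D/E2-KO against G12D and in the interaction 0 passed in edgeR (unadjusted 3 and 0, DESeq2 0 and 0). Among genes of activation, packing and inhibition, Ctsc, which encodes cathepsin C, the enzyme that activates these serine proteases, stood at 14.8, 17.2 and 10.6 CPM in WT and at 31.1, 31.2 and 36.1 CPM in G12D/E2-KO, without overlap. It rose there by 1.14 (SE 0.28, edgeR adjusted p 0.0449). That call was lost in 8 of 12 cases with 1 library left out, with the cells as deposited and without the filter on low counts.

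Serpinb1a, which encodes an inhibitor of neutrophil serine proteases, stood at 212 ± 38.4 CPM in WT and at 136.5 ± 31.6 CPM in E2-KO, a change of -0.68 (SE 0.16, edgeR adjusted p 0.0664) that did not pass. Of the transcription factors, the smallest adjusted p belonged to Myb (0.57 in G12D/E2-KO, adjusted p 0.0609) and Cebpa, needed for the step to GMP (0.70, adjusted p 0.0732), and neither passed. Of the other granule and lysosomal genes the smallest adjusted p belonged to Man2b1 (0.39, adjusted p 0.145) and Gusb (0.34, adjusted p 0.194) in G12D/E2-KO, both of which encode lysosomal glycosidases. Of the chaperones that fold myeloperoxidase, Calr had a change of 0.47 in G12D/E2-KO (adjusted p 0.228) and Canx of 0.205 in E2-KO (adjusted p 0.471).

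Classes with under 20 cells in some libraries were read only as pooled values. The 143 T/NK-gated cells held Nkg7 at 661 CPM, 30.2 times the globin-high level, but also Elane at 881 CPM and Prtn3 at 1118 CPM, which lymphocytes are not known to make. The 1740 B lymphoid-gated cells held 127.9 CPM of Elane and 89.4 CPM of Mpo, 0.802 and 0.841 times the globin-high level.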

How the data were processed

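The authors aligned each library to mm10 with Cell Ranger and deposited UMI counts per cell; cells with over 10% mitochondrial UMIs and Scrublet doublets had been removed by them. No further cell filter or doublet caller was applied. The members and gene lists were chosen with earlier results of these data known, and the gate's scoring rule after the cells had been seen. Cells found in both T1 tables of G12D and G12D/E2-KO were counted once. A cell took the class with the highest mean log-scaled marker level (SD units over WT cells) if it reached 1 SD, led the next class by 0.5 SD and had 2 markers detected; 2 markers were not in the tables used. Cells near that margin number 1227 in GMP/early GN and 2118 in immature late GN. Counts were summed per library and class and tested with edgeR 4.0.16 (TMM, filterByExpr, quasi-likelihood, R 4.3.3), the model holding genotype plus time point for all 12 libraries (6 residual degrees of freedom). P-values are two-sided, Benjamini-Hochberg adjusted over all genes of a contrast, and the 3 time points serve as replicates, so they measure the spread between single libraries. That spread also holds any change of a genotype's effect over time. It holds sex as well, since G12D/E2-KO T3 was male and the other T3 libraries were female, and sex was not a term of the model. Alternatives were DESeq2, no filter, no time point term, fewer genotypes, other gates, globin and secondary granule genes left out, all cells as deposited and leaving out libraries. Shares were thinned by the hypergeometric expectation. DESeq2 1.42.0, Python 3.11.15 and GENCODE vM21 positions were also used. The fit was checked on simulated counts. Named were all members, partners called or with the 2 smallest adjusted p of their sublist among genotype contrasts, and the 5 most alike genes. Intervals were not computed for single libraries.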

Additional observations from a re-analysis of the deposited data

Results flagged for a closer look

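In 2 of 160 comparisons (8 genes, all cells and 9 classes, 2 mutations) every pair of libraries moved one way on one background and the opposite way on the other, both in baso/mast-gated cells. For Mpo the effect of Ezh2 loss on the log2 scale was 0.42 against WT (1294, 1293 and 976 CPM in WT and 1853, 1583 and 1323 CPM in E2-KO) and -0.15 against G12D (2103, 1515 and 1192 CPM in G12D and 1866, 1366 and 1100 CPM in G12D/E2-KO), a difference of 0.56. For Nkg7 the effect of G12D was 0.30 against WT and -0.32 against E2-KO, a difference of 0.62. Neither difference was tested. The share of all genes that meet this rule was not counted, so 2 of 160 (1.25%) cannot be set against a background.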

How the results depend on the processing

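The members' counts called out of 8 (7 in MEP) moved as follows, and the cause was not tested. DESeq2 called 2 in all cells, 2 in GMP/early GN and 2 in ProMo for G12D/E2-KO, 0 in MEP and 0 in EryP/early Ery for G12D/E2-KO, and 1 in baso/mast for G12D. Without a filter on low counts there were 1 and 1 in HSC/MPP (G12D, G12D/E2-KO), 3 in GMP/early GN and 3 in ProMo (G12D/E2-KO), 1, 1 and 3 in EryP/early Ery (E2-KO, G12D, G12D/E2-KO) and 1 in baso/mast (G12D). With the cells as deposited immature late GN had 0 and 0 (E2-KO, G12D/E2-KO). The loose gate gave 2 in immature late GN and 0 in EryP/early Ery and the strict gate 0 in MEP and 0 in EryP/early Ery, all for G12D/E2-KO. Of 21 partners DESeq2 called 2, 1 and 4 (E2-KO, G12D, G12D/E2-KO), no filter gave 1 (E2-KO) and 0 (G12D/E2-KO), the cells as deposited 0 (G12D/E2-KO) and a fit of only the genotypes compared 2 (E2-KO). The G12D effect on the Mpo share was -2.63 points with at least 2 UMIs.

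Without the time point as a replicate block the only count that moved was that of EryP/early Ery in G12D/E2-KO, to 0 (Cst7 1.43, adjusted p 0.0542). Deviations of libraries of the same time point correlated at -0.24 to 0.46, 12 of 18 pairs above 0.1. The model has the time point as a term and the Mpo comparison sets libraries of 1 time point against each other, by the design and not by this check.

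With 1 library left out, counts ran from 0 to 1 in HSC/MPP (G12D, and G12D/E2-KO), 0 to 2 in GMP/early GN (G12D/E2-KO), 0 to 1 (E2-KO) and 1 to 2 (G12D/E2-KO) in immature late GN, 0 to 2 in mature late GN (E2-KO), 0 to 2 in ProMo, 0 to 1 in MEP and 0 to 1 in EryP/early Ery (G12D/E2-KO) and 0 to 1 in baso/mast (G12D). For partners they ran from 0 to 2 (E2-KO), 0 to 1 (G12D), 0 to 3 (G12D/E2-KO) and 0 to 1 (G12D/E2-KO against G12D). Log2 changes that crossed 0, none of them called, ran in all cells of E2-KO from -0.16 to 0.54 (Elane), -0.08 to 0.64 (Ctsg), -0.18 to 0.49 (Prss57), -0.08 to 0.58 (Cst7) and -0.34 to 0.32 (Nkg7), and in those of G12D/E2-KO from -0.13 to 0.44 (Elane), -0.22 to 0.34 (Ctsg) and -0.32 to 0.23 (Nkg7). In GMP/early GN of G12D/E2-KO they ran from -0.33 to 0.00 (Mpo), -0.19 to 0.25 (Prtn3) and -0.42 to 0.01 (Cst7).

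Of 64 counts of libraries above the globin-high level (8 genes, 8 classes), 3 changed by over 1.5 times without cells of 10 or more UMIs of the gene in both classes and 24 with globin UMIs left out of the total, checks added after the data were seen.

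One library per genotype and time point, low counts in the late granulocyte and erythroid gates and gates built from RNA limit these values.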
